A study of Mus musculus with 2 samples.

Results

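Genes for enzymes that cut the extracellular matrix, for their inhibitors and for matrix proteins that macrophages make themselves were followed in ATMs (adipose tissue macrophages) of lean mice and of mice given a high fat diet (HFD) for one night. The members were taken by symbol: *Mmp12*, *Mmp14*, *Mmp19*, *Mmp9*, *Timp1*, *Timp2*, *Adam8*, *Thbs1*, *Fn1* and *Vcan*, 10 of the 31053 genes in the count tables, of which 15902 had a UMI in the cells kept here. Male C57BL/6JOlaHsd mice of 8 to 12 weeks either stayed on control diet (CD, 11% of energy from fat) or were given HFD (58% of energy from fat) overnight, and the labels name no transgene or deletion. Epididymal fat was digested with collagenase, and CD45+ F4/80+ cells without lineage markers (among them TCRb, SiglecF and Ly6G) and with little or no Ly6C were sorted and run on droplet-based scRNA-seq. Each diet was 1 library of 3 pooled mice, so mice could not be told apart and there was no replicate check: the diets are compared without a test, and all intervals cover counting error only.

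Matrix metalloproteinases (MMPs) and the related ADAM proteases are zinc enzymes that cut matrix proteins and cell surface proteins. TIMPs bind MMPs and block them. Fibronectin, thrombospondin and versican are secreted matrix proteins to which cells attach through integrins, CD44 or CD47, and in adipose tissue, where adipocytes swell and shrink with feeding, macrophages are one source of both the enzymes and the matrix.

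Among the members with over 50 UMIs, *Mmp12* was the most unevenly spread over cells. It has 2 start sites in RefSeq, and the 250 bases before each start are shown because only one of them holds a match to the AP-1 site, the motif of the Fos and Jun factors. The second stretch lies downstream of the first start, within the annotated bounds of the gene. Both are on the + strand of GRCm38.p6, and capitals mark TGAGTCA, which was searched together with TGACTCA so that both strands were covered.
*Mmp12* start 1, chr9:7344147-7344396: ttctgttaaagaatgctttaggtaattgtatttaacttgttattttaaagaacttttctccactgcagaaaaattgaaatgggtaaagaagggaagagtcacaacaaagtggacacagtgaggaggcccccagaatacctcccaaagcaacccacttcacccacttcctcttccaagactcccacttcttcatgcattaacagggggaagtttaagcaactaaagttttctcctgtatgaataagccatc
*Mmp12* start 2, chr9:7347124-7347373: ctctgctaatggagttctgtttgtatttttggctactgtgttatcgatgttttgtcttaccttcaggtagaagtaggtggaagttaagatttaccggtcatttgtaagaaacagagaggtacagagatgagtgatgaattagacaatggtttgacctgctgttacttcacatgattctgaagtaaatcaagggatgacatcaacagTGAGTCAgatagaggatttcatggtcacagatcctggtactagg
The match began 44 bases before the second start (position -44). Of the 6 members with a promoter in the RefSeq table (*Mmp12*, *Mmp14*, *Timp1*, *Timp2*, *Adam8* and *Vcan*), 1 held the motif in its window of 250 bases before to 50 after the start, beside 5.95% of the 27025 genes and 5.20% of the 32851 promoters in the table. The match is a run of letters and not a measured binding site.

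Cells with 200 to 3500 genes and at most 10% mitochondrial (mt-) UMIs were kept, which left 2364 of 4459 barcodes in CD and 2021 of 3163 in HFD, with a median of 4491 and 2792 UMIs per cell. The HFD library was shallower, and 40.8% of its kept cells had under 1000 genes compared with 14.4% in CD. A total of 14 barcodes, 7 of them kept, occurred in both libraries. Macrophage markers (*Adgre1*, *Csf1r*, *Cd68*, *Lyz2*, *C1qa*, *C1qb*, *Mrc1*) were found in 99.9% of the cells in CD and in 2020 of 2021 in HFD. Stromal markers made up 79.9 CPM in CD (the UMIs of a gene or list scaled to 1000000 UMIs in all) and 5.07 CPM in HFD, with *Pdgfra* at 0 in HFD, and a single CD cell held 586 of the 982 stromal UMIs. In the macrophage list, *Lyz2* was at 12565 CPM in CD and 18096 CPM in HFD, and the others were lower in HFD. *C1qb* was at 3965 and 2746 CPM, *C1qa* at 3851 and 2074 CPM and *Mrc1* at 838 and 529 CPM. *Csf1r* was at 815 and 470 CPM, *Cd68* at 350 and 265 CPM and *Adgre1* at 274 and 240 CPM. Monocyte markers were at 42.7 and 111 CPM and the peritoneal macrophage markers *Gata6*, *Prg4* and *Alox15* at 14.9 and 51.2 CPM. In the monocyte list, *Plac8* (25.6 and 89.8 CPM), *Chil3* (1.55 and 8.29 CPM) and *Treml4* (0.81 and 1.73 CPM) were higher in HFD. *Ly6c2* (11.1 and 8.78 CPM), *Ace* (3.17 and 1.98 CPM) and *Cd300e* (0.49 and 0.25 CPM) were lower. Of the other lists, in CD and HFD, resident ATM markers were at 1926 and 639 CPM, lipid-associated macrophage markers at 173 and 136 CPM, dendritic cell markers at 163 and 129 CPM, adipocyte markers at 60.8 and 35.4 CPM, neutrophil markers at 15.5 and 8.16 CPM with *Ly6g* at 0 in both, endothelial markers at 12.5 and 9.65 CPM, mesothelial markers at 1.63 and 0.62 CPM and B, T and NK cell markers at 1.63 and 0.25 CPM. In the dendritic cell list, *Cd209a* was at 134 CPM in CD and 72.7 CPM in HFD, and *Zbtb46* at 4.72 and 2.84 CPM. *Ccl17* (18.9 and 43.5 CPM), *Klrd1* (3.74 and 8.04 CPM) and *Flt3* (1.38 and 2.10 CPM) were higher in HFD. In the lipid-associated macrophage list, *Trem2* (84.3 and 41.3 CPM) and *Spp1* (4.56 and 2.84 CPM) were lower in HFD. *Cd9* (32.1 and 39.9 CPM) and *Gpnmb* (1.06 and 1.73 CPM) were higher, and *Fabp5* was at 51.0 and 50.3 CPM. Genes of the early response to stress and digestion (10 of 10 with a UMI) were at 14263 and 13788 CPM. In this list, *Hspa1b* (45.8 and 128 CPM), *Hspa1a* (361 and 591 CPM), *Junb* and *Ier2* were higher in HFD. *Egr1* (1882 and 1510 CPM), *Atf3* (714 and 598 CPM), *Fos*, *Fosb*, *Jun* and *Dnajb1* were lower. The part of these lists in the results was not tested, except where a value stands beside the result.

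Across all kept cells, the matrix protein gene *Thbs1* and the proteases *Mmp19* and *Mmp12* were at least 2-fold higher in HFD than in CD, as was the barely detected *Vcan*, and no member was 2-fold lower. A gene entered this count with at least 20 UMIs over both libraries, which 9 of 10 members had (*Mmp14* had 16 UMIs), and 4 of 9 were higher. Of all 11170 genes with 20 UMIs, 2.12% were at least 2-fold higher and 5.48% at least 2-fold lower. The members were chosen with earlier results of these data known, so these shares are given for scale only. The median log2 ratio of HFD over CD was 0.85 over the 9 members and -0.02 over all genes tested. In bulk sums of this kind, more cells with a transcript and more transcript per cell cannot be told apart, so the share of positive cells is given beside the levels of the members with over 50 UMIs in each library.

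*Thbs1* encodes thrombospondin-1, a secreted glycoprotein that binds CD36 and CD47 and releases TGF-beta from its latent form (chr2:118111876-118127133, + strand, GRCm38). It was at 23.7 CPM in CD (291 UMIs) and 176 CPM in HFD (1422 UMIs), a 7.42-fold difference (log2 2.89, 95% interval 2.71 to 3.08). With each cell thinned to 1000 UMIs, the share of cells with a *Thbs1* UMI was 10.6% in HFD (9.20 to 12.1) and 1.38% in CD (0.95 to 1.95), and the unthinned shares were 18.6% and 3.93%. The ratio stayed between 2.85 and 3.11 in 16 alternative settings.

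*Thbs1* was higher in HFD in each of the 6 cell classes. In Lyve1+ cells, with a marker of resident ATMs, it went from 9.87 to 111 CPM, an 11.3-fold difference (log2 3.49, 3.03 to 3.97). In Folr2+Lyve1- cells it was at 27.6 and 125 CPM (log2 2.18), in Ccr2+ cells at 23.9 and 167 CPM (log2 2.80), and in cells with at least 10 *Lyz1* UMIs (called *Lyz1* cells) at 32.8 and 192 CPM (log2 2.55). Plac8+ cells, with the transcript of monocytes, had the highest level in both libraries, 135 and 428 CPM (log2 1.66), and Trem2+ cells, marked by the receptor of lipid-associated macrophages, were at 21.0 and 245 CPM (log2 3.55). The Trem2+ class held different cells in the 2 libraries: in CD 60.5% of them were also Lyve1+ and 15.8% also *Lyz1* cells, in HFD 19.0% and 27.4%, and the resident markers in the class were at 2548 and 612 CPM. Ccr2+ and *Lyz1* cells were also made up differently in the 2 libraries. Resident markers were at 1250 CPM in CD and 335 CPM in HFD in Ccr2+ cells, and at 489 and 148 CPM in *Lyz1* cells. Of the Ccr2+ cells, 37.5% in CD and 13.6% in HFD were also Lyve1+. Lyve1+ cells had resident markers at 3529 CPM in CD and 2152 CPM in HFD, and 32.9% and 7.71% of them were also Trem2+. Of the Folr2+Lyve1- cells, 65.1% and 49.7% were also Ccr2+. Plac8+ cells had dendritic cell markers at 54.9 and 415 CPM. Their stromal markers were at 2146 CPM in CD, from 1 cell, and 5.06 CPM in HFD. The ratios of all members in the 6 classes therefore do not compare one kind of cell. The classes overlap, and when only cells in 1 class were kept, the ratio was 0.35 in Folr2+Lyve1- cells and -0.40 in *Lyz1* cells, the latter from 8 CD and 47 HFD cells.

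Part of the *Thbs1* signal came from cells with peritoneal macrophage markers. A UMI of *Gata6*, *Prg4* or *Alox15* was present in 42 cells of CD and 37 of HFD, and these cells had *Thbs1* at 203 and 994 CPM and held 23.0% and 14.7% of its UMIs. Few of the marker UMIs were of *Gata6* (6 in CD and 5 in HFD), beside 118 and 195 of *Prg4* and 59 and 214 of *Alox15*. Outside these cells *Thbs1* was at 18.7 CPM in CD and 154 CPM in HFD, a log2 ratio of 3.04 (2.83 to 3.25), so the difference was as large without them. Cells with a monocyte marker held 13.7% and 14.9% of *Thbs1* UMIs, and without them the log2 ratio was 2.91. The 264 HFD cells in none of the 6 classes had *Thbs1* at 331 CPM, while the 39 such cells in CD had none, which allows up to 47.6 CPM (3 UMIs). These cells were shallow, with a median of 1003 UMIs in HFD and 1190 in CD, and 92.0% and 82.1% had under 1000 genes. A class needs a UMI of its marker, so shallow cells can miss all 6.

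**Figure D1:**
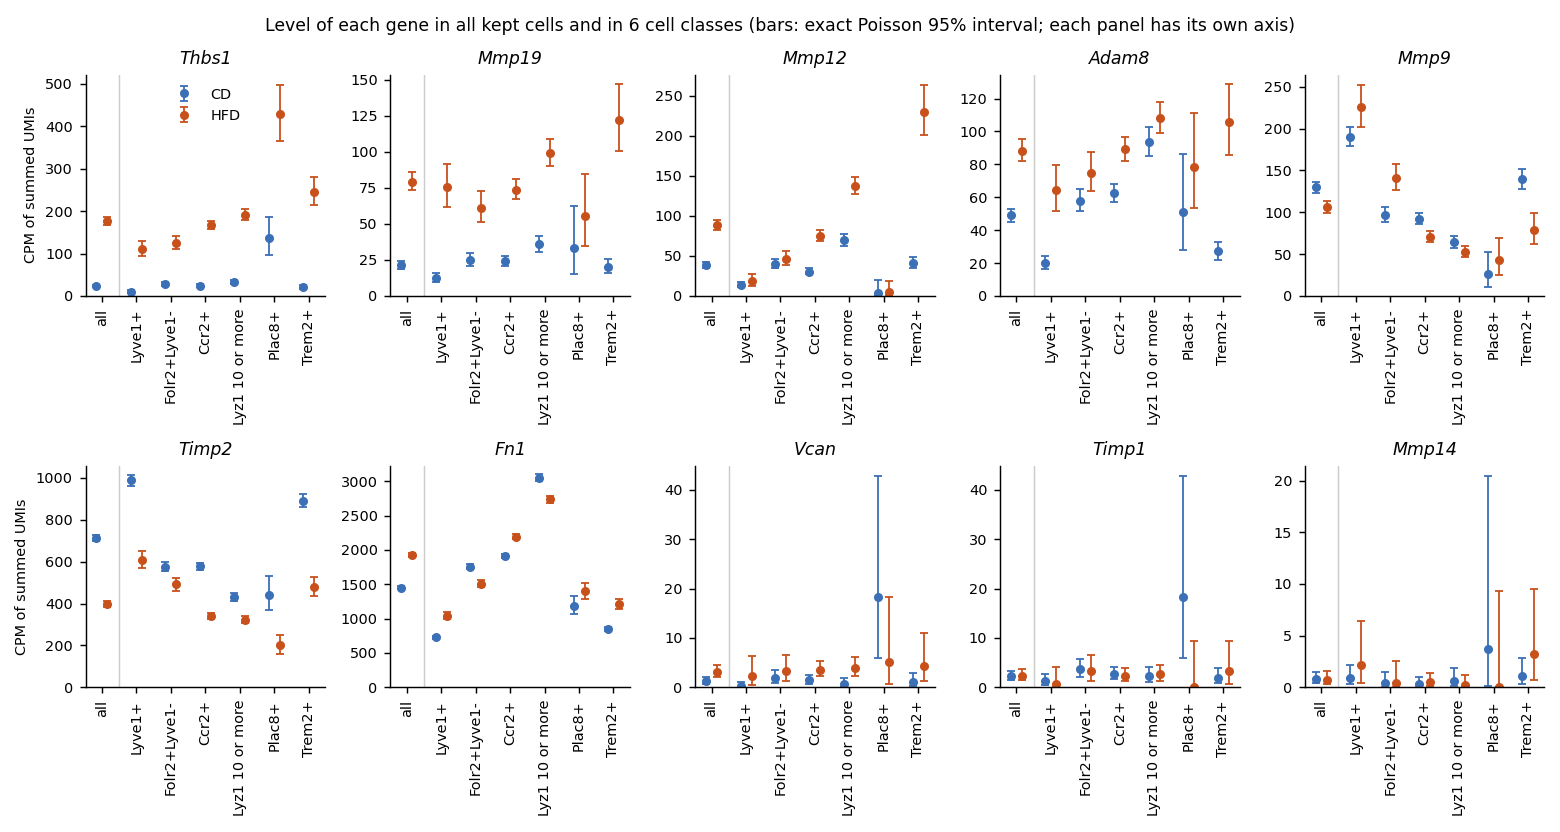
Level of each of the 10 genes, as CPM of summed UMIs, in all kept cells and in the 6 overlapping cell classes of the CD (blue) and HFD (orange) library; points are sums over cells, bars the exact Poisson 95% interval, and each panel has its own axis. *Thbs1* and *Mmp19* were higher in HFD in the all-cell sum and in each class, while *Timp2* was lower, and *Vcan*, *Timp1* and *Mmp14* stayed under 20 CPM throughout.

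Among the proteases, *Mmp19* (chr10:128790910-128800824, + strand), a secreted MMP of basement membrane substrates, followed the same direction as *Thbs1* in every class. It was at 21.2 CPM in CD (261 UMIs) and 79.3 CPM in HFD (641 UMIs), a 3.73-fold difference (log2 1.90, 1.69 to 2.11). The thinned share of positive cells was 1.64% in CD (1.17 to 2.25) and 5.70% in HFD (4.66 to 6.89). By class, the level went from 12.7 to 75.5 CPM in Lyve1+, from 24.8 to 61.3 CPM in Folr2+Lyve1-, from 24.0 to 73.8 CPM in Ccr2+, from 35.7 to 99.2 CPM in *Lyz1* and from 20.2 to 122 CPM in Trem2+ cells. These 5 classes passed 2-fold, with log2 ratios of 2.58, 1.31, 1.62, 1.47 and 2.60. In Plac8+ cells, with 9 and 22 UMIs, the log2 ratio was 0.76 with an interval from -0.42 to 2.06. In Trem2+ cells drawn after thinning the ratio was 0.38. The all-cell ratio ranged from 1.77 to 2.13 over 16 alternatives.

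*Mmp12* encodes macrophage elastase (chr9:7344381-7369499, + strand). It was at 38.7 CPM in CD (476 UMIs) and 88.3 CPM in HFD (714 UMIs), a 2.28-fold difference (log2 1.19, 1.02 to 1.36). Few cells carried these sums. Only 69 CD and 118 HFD cells had a *Mmp12* UMI, and the 14 CD and 13 HFD cells with 10 or more UMIs held 78.4% and 67.1% of them, up to 75 UMIs in a CD cell and 124 in an HFD cell. These cells were deep, with a median of 8222 and 7998 UMIs, and 11 of 14 and 12 of 13 also had at least 10 *Lyz1* UMIs. The thinned share of positive cells was 1.08% in CD (0.70 to 1.59) and 2.96% in HFD (2.22 to 3.87). Without all 555 CD and 672 HFD cells of at least 10 *Lyz1* UMIs, the log2 ratio of HFD over CD was 0.29 (-0.12 to 0.69). Without the cells of 10 or more *Mmp12* UMIs, which were chosen by the gene itself, it was 1.80. It also lay under 2-fold, at 0.96, with a limit of 5% mt- UMIs, at 0.99 with each cell weighted equally, and at 0.46 without cells holding a marker of another cell type. In HFD, cells with a neutrophil marker held 133 of the 714 *Mmp12* UMIs and cells with an endothelial marker 135. The 2 HFD cells with most *Mmp12* UMIs held 34.7% of them, so 1 such cell can carry most of these sums. Of the 66 neutrophil marker UMIs in HFD, 54 were of *Csf3r*, and of the 78 endothelial ones, 40 were of *Pecam1*. Whether such cells were of another type was not tested.

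By class, *Mmp12* was at 13.8 and 18.9 CPM in Lyve1+ cells (CD and HFD), 39.9 and 46.7 CPM in Folr2+Lyve1- cells, 30.4 and 75.0 CPM in Ccr2+ cells, 69.5 and 138 CPM in *Lyz1* cells and 41.4 and 230 CPM in Trem2+ cells. In Plac8+ cells it had 1 and 2 UMIs. The 2-fold limit was passed in Ccr2+ (log2 1.30) and Trem2+ cells (log2 2.47), and the ratio in *Lyz1* cells was 0.98. The Trem2+ value rests on a handful of cells, since 3 CD cells held 123 of 150 UMIs and 5 HFD cells 189 of 213. Without cells holding another cell type's marker it was 0.61, and the Ccr2+ ratio 0.52.

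*Adam8* (chr7:139978932-139992562, - strand), a membrane-bound protease that sheds cell surface proteins, was at 49.0 CPM in CD (602 UMIs) and 88.4 CPM in HFD (715 UMIs), which is 1.80-fold (log2 0.85, 0.69 to 1.01). The thinned share of positive cells was 3.16% (2.48 to 3.95) and 6.39% (5.29 to 7.63). *Adam8* passed 2-fold in the classes where it was low in CD, going from 20.3 to 64.6 CPM in Lyve1+ cells (log2 1.67) and from 27.1 to 106 CPM in Trem2+ cells (log2 1.97). In *Lyz1* cells, where it was highest in CD, it was at 93.5 and 108 CPM (log2 0.21, 0.02 to 0.40). In Folr2+Lyve1-, Ccr2+ and Plac8+ cells the log2 ratios were 0.37, 0.51 and 0.61. Outside *Lyz1* cells the ratio was 1.58. With classes drawn from thinned cells, the Lyve1+ ratio was 0.75, under the 2-fold limit.

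*Mmp9* encodes gelatinase B (chr2:164940780-164955850, + strand) and was not higher in the all-cell sum of HFD. The gene was at 130 CPM in CD (1592 UMIs) and 107 CPM in HFD (862 UMIs), a log2 ratio of -0.28 (-0.40 to -0.16). The thinned share of positive cells was 14.5% in CD (13.1 to 16.04) and 12.8% in HFD (11.2 to 14.4). With thinning to 600 UMIs, 215 of 2351 CD cells and 186 of 1984 HFD cells were positive, so the HFD share was no longer lower. The sign of the ratio was not the same in all classes, since *Mmp9* was higher in HFD in Lyve1+ cells (190 and 226 CPM, log2 0.25) and Folr2+Lyve1- cells (97.0 and 141 CPM, log2 0.54) but lower in Ccr2+ (92.1 and 70.4 CPM, log2 -0.39), *Lyz1* (64.1 and 52.9 CPM, log2 -0.28) and Trem2+ cells (139 and 78.9 CPM, log2 -0.82). Plac8+ cells had 7 and 17 *Mmp9* UMIs (log2 0.75, -0.60 to 2.26). The level moved with the depth of the cells: cells under 1000 genes had 277 CPM in CD and 324 CPM in HFD, and cells with at least 1000 genes 123 and 73.9 CPM. With each cell weighted equally the all-cell ratio was 0.18, so its sign depended on the weighting. The transcript of *Mmp14* (chr14:54431612-54445364, + strand), a membrane-anchored collagenase, was seen with 10 UMIs in CD and 6 in HFD, at 0.81 and 0.74 CPM, and could not be compared at this depth. In the annotation, *Timp2* overlaps *Cep295nl* and *Adam8* overlaps *Mir7062* on the same strand, while *Mmp12* (*Mmp1b*), *Mmp19* (*Tmem198b*), *Timp1* (*Syn1*), *Fn1* (*Apol7d*), *Adam8*, *Thbs1* and *Vcan* overlap genes of the opposite strand. The strand setting of the counting is not given in the sources used here, so reads of such pairs may not be fully told apart.

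Of the inhibitors, *Timp2* (chr11:118301069-118355740, - strand) was abundant and lower in HFD, and *Timp1* was near the detection limit. *Timp2* was at 714 CPM in CD (8775 UMIs) and 398 CPM in HFD (3222 UMIs), so CD was 1.79-fold higher (log2 -0.84, -0.90 to -0.78). The thinned share of positive cells was 51.4% (49.3 to 53.4) in CD and 35.3% (33.1 to 37.6) in HFD. Levels in CD and HFD were 988 and 610 CPM in Lyve1+, 575 and 491 CPM in Folr2+Lyve1-, 578 and 338 CPM in Ccr2+, 432 and 322 CPM in *Lyz1*, 443 and 202 CPM in Plac8+ and 892 and 481 CPM in Trem2+ cells. *Timp2* was thus lower in HFD in all 6 classes, but the 2-fold limit was passed in Plac8+ cells alone (log2 -1.13, -1.56 to -0.71). That call was lost in 4 alternatives, among them the one without cells of other markers (-0.95), and turned to 2.03 in thinned cells. The CD cell with most stromal UMIs was a Plac8+ cell with 20 of the 121 *Timp2* UMIs there. *Timp1* (chrX:20870166-20874735, + strand) had 28 UMIs in CD and 19 in HFD, at 2.28 and 2.35 CPM (log2 0.04, -0.88 to 0.94).

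Of the other matrix proteins, fibronectin (*Fn1*, chr1:71585520-71653200, - strand) was the member with most UMIs. It was at 1449 CPM in CD (17801 UMIs) and 1922 CPM in HFD (15539 UMIs), a log2 ratio of 0.41 (0.38 to 0.44), with thinned shares of 33.9% (31.9 to 35.8) and 50.3% (47.9 to 52.7). The ratio within classes was smaller or of the other sign where *Fn1* was high. It was -0.16 in *Lyz1* cells (3055 and 2738 CPM) and -0.22 in Folr2+Lyve1- cells (1753 and 1510 CPM), compared with 0.52 in Lyve1+ (727 and 1043 CPM), 0.53 in Trem2+ (845 and 1216 CPM), 0.19 in Ccr2+ (1913 and 2190 CPM) and 0.24 in Plac8+ cells (1186 and 1399 CPM). The share of *Lyz1* cells was itself larger in HFD, 33.3% compared with 23.5%. Outside *Lyz1* cells the *Fn1* ratio was 0.97. *Vcan* (chr13:89655312-89742509, - strand), the proteoglycan versican, had 15 UMIs in 8 CD cells and 25 UMIs in 23 HFD cells, at 1.22 and 3.09 CPM (log2 1.34, 0.36 to 2.37). Of the 15 UMIs in CD, 10 lay in cells with a monocyte marker, and the ratio was 2.84 without such cells and 0.33 without *Lyz1* cells.

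**Figure D2:**
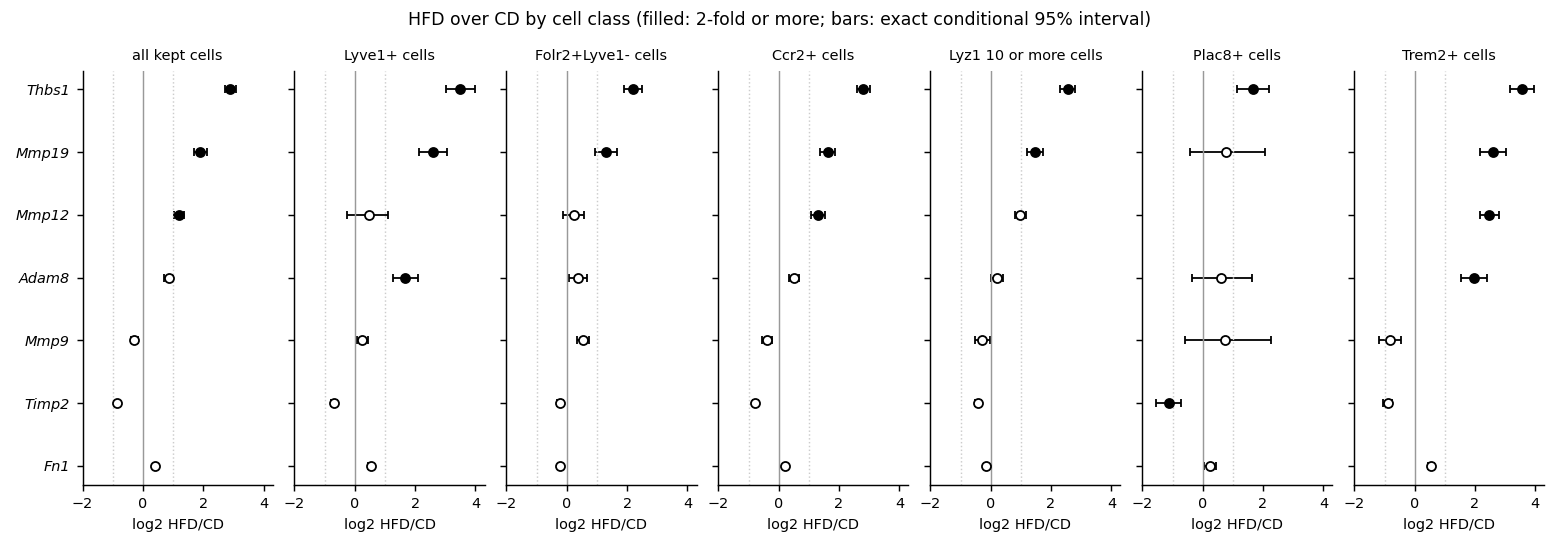
log2 ratio of HFD over CD (x axis) for the 7 members with over 50 UMIs in each library, in all kept cells and in each class; filled points are at least 2-fold, bars are exact conditional 95% intervals of the counts, dotted lines mark 2-fold, and *Mmp12* is left out of Plac8+ cells, where it had 3 UMIs. *Thbs1* is filled in every panel and *Mmp19* in every panel but Plac8+, whereas *Timp2* lies left of 0 throughout.

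The counts within classes are set beside all genes for scale only, as the members were chosen with earlier results of these data known. At least 2-fold higher in HFD were 3 of 7 members tested in Lyve1+ cells (2.52% of all genes higher, 4.83% lower), 2 of 8 in Folr2+Lyve1- cells (2.43% and 3.61%), 4 of 9 in Ccr2+ cells (1.78% and 4.86%) and 3 of 9 in *Lyz1* cells (1.92% and 2.86%). In Trem2+ cells 4 of 7 were higher (3.63% and 9.22%), and in Plac8+ cells 1 of 6 was higher and 1 lower (4.38% and 4.51%). Outside Plac8+ cells no member was 2-fold lower in a class. All classes share cells, so these counts are not separate observations.

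Within a library, the members split by cell class. At least 2-fold higher than in the other cells in both libraries were *Fn1* and *Mmp12* in *Lyz1* cells, *Fn1* in Ccr2+ cells, *Mmp9* in Lyve1+ cells and *Thbs1* in Plac8+ cells, although after thinning the calls of *Mmp12* in both libraries, *Mmp9* in CD and *Fn1* in Ccr2+ cells of HFD (0.66) were lost. A class needs 1 UMI of its marker, so deep cells enter more classes, and in CD 95.7% of *Lyz1* cells were also Ccr2+. Median UMIs per cell in CD ranged from 4053 in Lyve1+ (1172 cells) to 8205 in *Lyz1* cells (555 cells), and in HFD from 2299 (415 cells) to 6609 (672 cells). The median log2 ratio of all genes was itself away from 0 in some of these comparisons, at 0.12 for Lyve1+ cells in CD, -0.17 and -0.22 for Ccr2+ cells and -0.22 and -0.23 for *Lyz1* cells in CD and HFD. The other classes held 872 and 581 (Folr2+Lyve1-), 1326 and 1131 (Ccr2+), 42 and 73 (Plac8+) and 638 and 168 cells (Trem2+).

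In cells with at least 10 *Lyz1* UMIs, *Fn1* was at 3055 CPM in CD compared with 433 CPM in the other cells (log2 2.82, 2.77 to 2.88), and at 2738 and 847 CPM in HFD (log2 1.69, 1.64 to 1.75). *Adam8* was at 93.5 and 20.9 CPM in CD (log2 2.16) and 108 and 62.4 CPM in HFD (log2 0.79). *Mmp19* was at 35.7 and 12.1 CPM in CD (log2 1.56) and 99.2 and 53.0 CPM in HFD (log2 0.91). *Mmp12* was at 69.5 and 19.3 CPM in CD (log2 1.85) and 138 and 23.5 CPM in HFD (log2 2.55). When cells were first thinned to 1000 UMIs and the class drawn from what was left, the ratio was 0.36 and -0.30. The limit of 10 *Lyz1* UMIs was kept there, so the class was stricter, with 160 CD and 267 HFD cells. Thinned cells with 3 to 9 *Lyz1* UMIs then counted as other cells and had *Mmp12* at 114 CPM in CD and 174 CPM in HFD. *Mmp9* was lower in *Lyz1* cells, at 64.1 and 171 CPM in CD (log2 -1.42) and 52.9 and 177 CPM in HFD (log2 -1.75), and so was *Timp2* (log2 -1.05 and -0.64). Of 8 members tested, 4 were 2-fold higher and 2 lower in CD (all genes 3.97% and 15%), and 2 higher and 1 lower in HFD (2.8% and 12.3%).

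Ccr2+ cells showed part of this pattern. *Fn1* was at 1913 CPM compared with 325 CPM outside the class in CD (log2 2.56) and at 2190 and 1054 CPM in HFD (log2 1.06, but 0.68 in cells with at least 1000 genes). *Adam8* was 3.80-fold higher in CD (62.5 and 16.4 CPM) but at 89.0 and 86.4 CPM in HFD, a log2 ratio of 0.04 (-0.21 to 0.30). *Mmp9* was lower in both (log2 -1.26 and -1.67). In CD 3 of 8 members were higher and 1 lower (4.64% and 9.72% of all genes), and in HFD 2 higher and 1 lower (3.94% and 10.8%), including *Timp1* in CD and *Vcan* in HFD with under 30 UMIs each.

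Lyve1+ cells were the reverse. *Mmp9* was at 190 CPM compared with 82.6 CPM in the other cells of CD (log2 1.20, 1.05 to 1.35) and at 226 and 82.1 CPM in HFD (log2 1.46, 1.25 to 1.66). With each cell weighted equally these ratios were 0.68 and 0.93, under 2-fold, and after thinning they were 0.44 and 1.15. *Timp2* was 1.97-fold higher in CD (988 and 502 CPM) and 1.72-fold higher in HFD (610 and 355 CPM). In CD, *Mmp12*, *Mmp19*, *Timp1*, *Adam8*, *Thbs1* and *Fn1* were at least 2-fold lower in Lyve1+ cells, with log2 ratios of -2.08, -1.14, -1.22, -1.81, -1.80 and -1.47. In HFD only *Mmp12* (-2.44) and *Fn1* (-1.01) were, and *Mmp19* was at 75.5 and 80.0 CPM (log2 -0.08, -0.40 to 0.22). In counts, 1 of 8 was higher and 6 lower in CD (6.24% and 4.75% of all genes), and 1 higher and 2 lower in HFD (5.31% and 4.23%). Whether the ratio of a class differed between diets was not tested, with 1 library each. In HFD the *Fn1* call was lost with a limit of 5% mt- UMIs (-0.79) and in cells with at least 1000 genes (-0.86).

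Folr2+Lyve1- cells differed little from the rest, with 1 of 8 members higher in CD, *Timp1* with 18 UMIs, and 0 lower (0.992% and 2.64% of all genes), and 0 higher and 1 lower in HFD, *Mmp12* (1.34% and 2.17%). Several members had opposite signs in CD and HFD there. Lyve1+ cells, all of them among the other cells, made up 49.6% of kept cells in CD and 20.5% in HFD. In Plac8+ cells *Thbs1* was at 135 CPM compared with 21.1 CPM in the other CD cells (log2 2.68, 2.14 to 3.18) and at 428 and 163 CPM in HFD (log2 1.39, 1.15 to 1.63). *Mmp12* was nearly missing, with 1 of 476 and 2 of 714 UMIs. Of 8 members, 2 were higher and 2 lower in CD (8.29% and 8.88% of all genes), the other higher one being *Timp1* with 5 UMIs, and 1 higher and 3 lower (*Mmp12*, *Mmp9* and *Timp2*) in HFD (4.85% and 8.37%). Trem2+ cells had *Adam8* and *Fn1* lower in CD (log2 -1.10 and -1.01) and *Mmp12* higher in HFD (log2 1.72, but 0.62 without the 5% of cells with most UMIs), so 0 of 8 were higher and 2 lower in CD (1.48% and 2.56%), and 1 higher and 0 lower in HFD (3.29% and 7.5%).

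The contrast between *Fn1* on one side and *Timp2* and *Mmp9* on the other was also seen with cells thinned to the same number of UMIs. The cells of the bins still differed in their depth before thinning, with a median of 3886 UMIs in CD cells with no *Lyz1* UMI and 8378 with 10 or more, and 2523 and 6650 in HFD, and the part of that depth in the levels was not tested. With each cell thinned to 1000 UMIs, *Fn1* was at 271 CPM in CD cells with no *Lyz1* UMI, 819 CPM with 1 to 2, 3013 CPM with 3 to 9 and 4175 CPM with 10 or more. In HFD these levels were 537, 1037, 2621 and 3296 CPM. *Adam8* went from 14.1 to 138 CPM in CD and from 38.9 to 116 CPM in HFD. *Timp2* went from 919 to 325 CPM in CD and from 587 to 367 CPM in HFD, and *Mmp9* from 227 to 31.3 CPM and from 241 to 41.2 CPM. *Mmp12* did not follow *Lyz1* to the end: it was highest with 3 to 9 *Lyz1* UMIs, 114 CPM in CD and 174 CPM in HFD, and was at 37.5 and 56.2 CPM with 10 or more. Only 25 CD and 52 HFD thinned cells held a *Mmp12* UMI, and the intervals do not cover its uneven spread over cells. *Mmp19* was also highest with 3 to 9 *Lyz1* UMIs, 47.3 CPM in CD and 117 CPM in HFD. It was at 37.5 and 93.6 CPM with 10 or more, with overlapping intervals. *Thbs1* in HFD was above CD in every *Lyz1* bin, at 121 compared with 8.15 CPM in cells with no *Lyz1* UMI. The lowest HFD bin held 668 cells and the highest 267, and the CD bins 1350 and 160. Along *Folr2*, a transcript of resident ATMs, the order was turned around. *Fn1* was at 2070 CPM in CD cells with no *Folr2* UMI and 102 CPM with 3 to 9, and at 1986 and 243 CPM in HFD, where 74 cells had 3 to 9. *Timp2* was at 477 and 1175 CPM in CD and at 379 and 730 CPM in HFD. With 0, 1 to 2 and 3 to 9 *Folr2* UMIs, *Thbs1* was at 32.7, 12.2 and 2.03 CPM in CD. In HFD these levels were 226, 59.5 and 0 CPM. The 0 comes from 74 cells and allows up to 49.8 CPM, so HFD was not seen above CD in that bin.

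**Figure D3:**
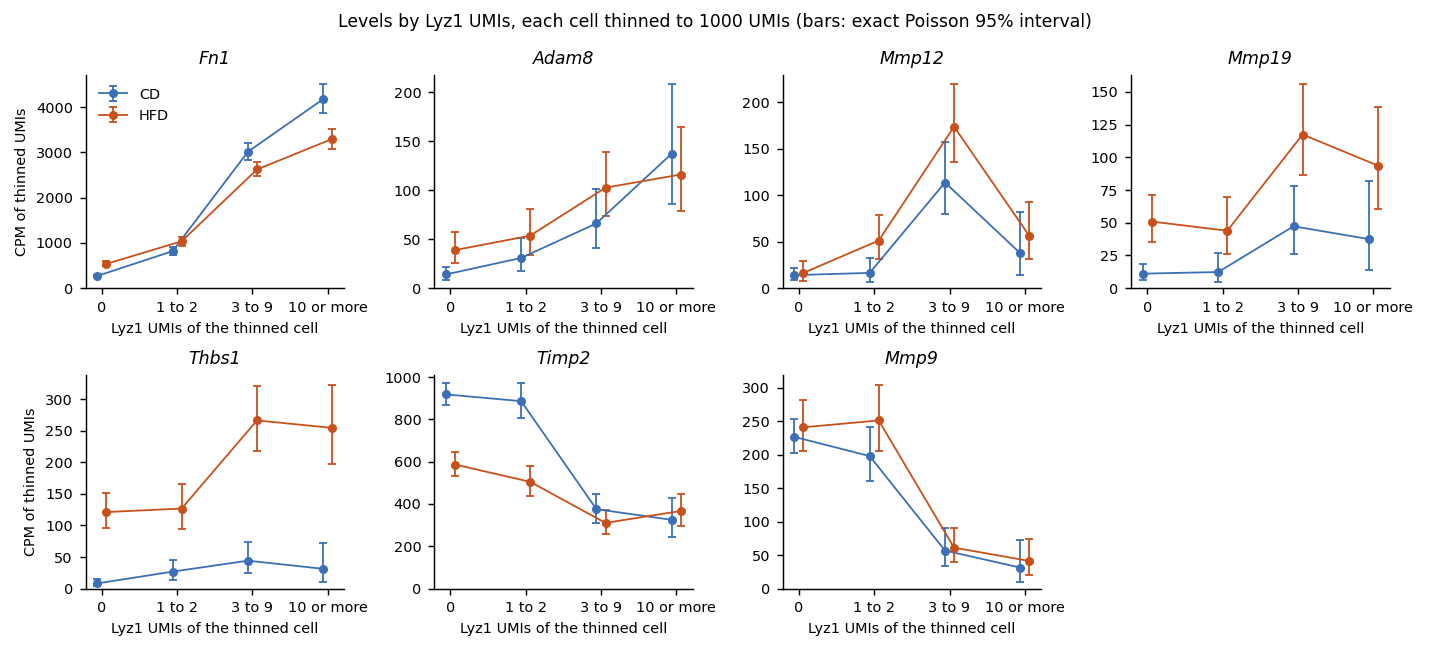
Levels (CPM of thinned UMIs, y axis from 0) of 7 members in cells thinned to 1000 UMIs and binned by their *Lyz1* UMIs, for CD (blue) and HFD (orange); bars are exact Poisson 95% intervals and cells under 1000 UMIs (52 in CD, 267 in HFD) are left out. *Fn1* and *Adam8* go up along the bins, and *Timp2* and *Mmp9* are lower in the bins from 3 *Lyz1* UMIs on. *Mmp12*, with a UMI in 25 CD and 52 HFD cells, and *Mmp19* are highest at 3 to 9 *Lyz1* UMIs. *Thbs1* in HFD lies above CD in every bin.

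Pairs of members in one cell gave values on both sides of the number expected from their shares. Among 2312 thinned CD cells, *Mmp9* and *Fn1* were found together in 60 cells compared with 114 from the product of their shares (0.53-fold; 0.61-fold in HFD), and *Timp2* and *Fn1* in 274 compared with 402 (0.68-fold; 0.86-fold in HFD). *Adam8* and *Fn1* shared 58 cells compared with 24.7 (2.35-fold; 1.44-fold in HFD), and *Mmp12* and *Mmp19* 6 cells compared with 0.41. Among 1754 HFD cells, *Mmp12* shared 12 cells with *Adam8* compared with 3.32, 12 with *Thbs1* compared with 5.51 and 8 with *Mmp19* compared with 2.96, but 6 with *Mmp9* compared with 6.64. *Thbs1* and *Fn1* were together in 143 cells compared with 93.5 (1.53-fold), while *Mmp9* and *Thbs1* met in 7 cells compared with 23.8 (0.29-fold). These are counts within 1 library and carry no test.

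The members differed in how many cells held their UMIs. The top 1% of cells by UMIs of a gene held 89.7% of *Mmp12* UMIs in CD and 76.2% in HFD, but 4.73% and 8.04% of *Timp2* UMIs. For *Thbs1* this share was 67.7% in CD and 24.96% in HFD, with more positive cells in HFD (375 compared with 93). *Fn1* was in 50.3% of CD and 57.9% of HFD cells before thinning, up to 146 UMIs in a CD cell and 89 in an HFD cell, and cells with 10 or more UMIs held 91.2% and 87.7% of its transcripts. The CD cell with 146 was the one with most peritoneal macrophage marker UMIs, 65 of 183. Cells with such a marker had *Fn1* at 3406 CPM in CD and 4321 CPM in HFD, compared with 1395 and 1858 CPM outside them. They held 6.30% and 5.85% of its UMIs. Free RNA in droplets gives stray UMIs, and with a marker of B, T or NK cells in 6 CD and 2 HFD cells there was no cell type to measure that background in.

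**Figure D4:**
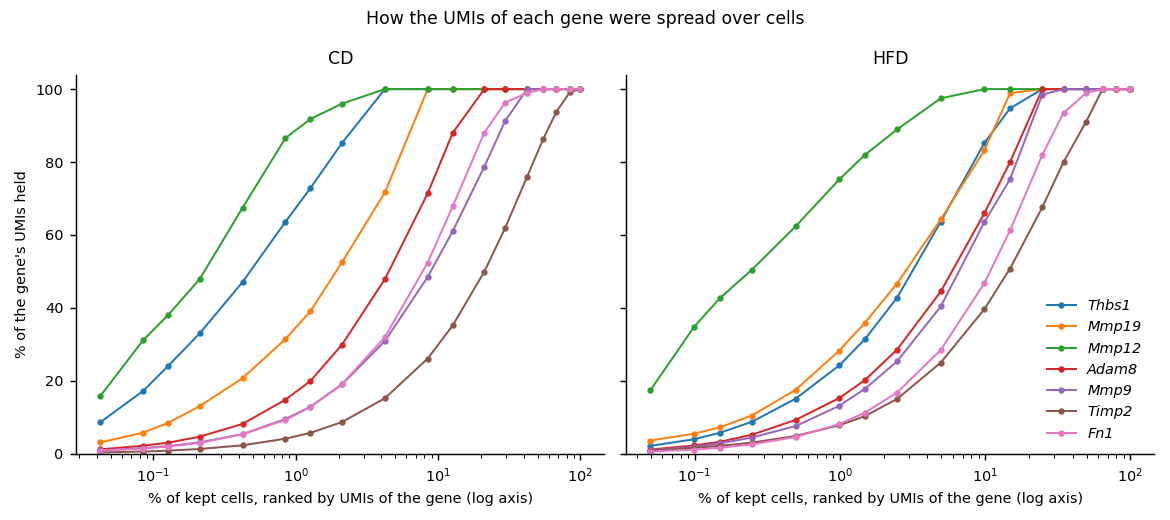
Share of a gene's UMIs (y axis, %) held by the cells with most UMIs of it (x axis, % of kept cells, log axis), for 7 members in the CD and HFD library. The *Mmp12* curve lies highest in both panels and the *Timp2* curve lowest at the top 1% of cells, and the *Thbs1* curve lies lower in HFD than in CD for the top 1% of cells (24.96% and 67.7%).

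A list of 66 other genes for matrix enzymes, inhibitors, matrix proteins and their receptors gave the surroundings. Of the 45 with 20 UMIs, 2 were at least 2-fold higher in HFD and 9 lower, with a median log2 ratio of -0.30. Of all genes tested, 2.12% were higher and 5.48% lower. The higher ones were *Serpinb2*, an inhibitor of plasminogen activators (3.83 and 10.1 CPM, log2 1.41, 0.87 to 1.96), and *Lgals3*, the matrix-binding lectin galectin-3 (885 and 1988 CPM, log2 1.17, 1.13 to 1.20). Of the 82 *Serpinb2* UMIs in HFD, 70 lay in the 37 cells with a peritoneal macrophage marker, and of the 47 in CD, 17. Among the lower ones, *F13a1*, the coagulation factor that crosslinks fibronectin, was at 1115 and 441 CPM (log2 -1.34, -1.39 to -1.28). *Sparc*, a collagen-binding protein, was at 33.4 and 9.27 CPM (log2 -1.85), and the collagen genes *Col1a2* and *Col3a1* were at 6.51 and 0.74 CPM (log2 -3.13) and at 6.92 and 0.37 CPM (log2 -4.22). Both collagen genes are themselves on the stromal list, and the CD cell with most stromal UMIs held 95 of 410 *Sparc*, 42 of 80 *Col1a2* and 34 of 85 *Col3a1* UMIs. All cells with a stromal marker held 286 of the 410 *Sparc* UMIs in CD and 6 of 75 in HFD. Outside these cells *Sparc* was at 10.5 CPM in CD and 8.64 CPM in HFD, so most of its difference lay in them. The remaining 5, each under 50 UMIs, were *Timp4*, *Col1a1*, *Col4a1*, *Hspg2* and *Nid1*. Close to the members in function but not 2-fold apart were *Plaur* (72.9 and 132 CPM, log2 0.86), *Cd44* (227 and 349 CPM, log2 0.63) and *Cd47* (260 and 254 CPM, log2 -0.04), the last pair being receptors for matrix proteins; these 3 were chosen after their values were seen. Within classes, the list had 3 higher and 1 lower of 30 in Lyve1+ cells (2.52% and 4.83% of all genes). The counts were 1 and 5 of 36 in Folr2+Lyve1- (2.43% and 3.61%), 1 and 6 of 38 in Ccr2+ (1.78% and 4.86%) and 1 and 3 of 32 in *Lyz1* cells (1.92% and 2.86%). In Plac8+ cells they were 1 and 5 of 28 (4.38% and 4.51%), and in Trem2+ cells 6 and 5 of 34 (3.63% and 9.22%).

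Across the 12 levels given by 6 classes in 2 libraries, the genes whose levels ran most like a member were named out of 6391 genes with at least 100 UMIs in each library, by Pearson's r of log2(CPM + 10). These were *Cebpb* for *Thbs1* (r = 0.98), *Rgs1* for *Mmp19* (0.97), *Tbca* for *Mmp12* (0.95), *Slc23a2* for *Mmp9* (0.98), *Ccdc90b* for *Timp2* (0.98), *Dpep2* for *Adam8* (0.95) and *Csf2ra* for *Fn1* (0.97), and, for the members with few UMIs, *Arl2* for *Mmp14* (0.94), *Snd1* for *Timp1* (0.98) and *Dapp1* for *Vcan* (0.99). The 12 points share cells, libraries and depth, so r is a description. The order held poorly within one library: of 30 like genes, 3 for each member, 2 were among the 10 most like over the 6 CD levels and 3 over the 6 HFD levels. *Cebpb* was at rank 23 in CD and 7 in HFD.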

How the data were processed

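Per the labels and the study's methods, sorted cells were run on the 10X 3' V2 kit, and the authors counted reads with Cell Ranger 3.0.2 on mm10 (Ensembl 93), 1 library per diet. The deposited files hold raw UMI counts per gene and barcode, with no normalization, and no deposited cell annotation was used. Barcodes with 200 to 3500 genes and at most 10% mt- UMIs were kept. No doublet caller was run, so doublets under the gene limit remain. For levels, the UMIs of a group of cells were added up, scaled to CPM and given an exact Poisson interval (95%); ratios have exact conditional binomial intervals and shares Clopper-Pearson intervals, all covering counting error only. With 1 library per diet and cells that are not replicates, no test between diets was made. A gene with at least 20 UMIs over both sides was called at 2-fold or more. Classes need 1 UMI of *Lyve1*, *Folr2* without *Lyve1*, *Ccr2*, *Plac8* or *Trem2*, or 10 of *Lyz1*, and overlap. Cells were thinned to 1000 UMIs (seed 11) for shares, pairs and bins.

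The text names all 10 members, the related genes that were called with at least 50 UMIs (up to 12), and the genes most like each member out of 3 taken for each. The members and lists were chosen with earlier results of these data known. Alternatives covered cell filters, class rules, scaling, weighting, the UMI minimum and thinning; 6 that leave out the top cell of each member, *Lyz1* cells, cells with 10 or more *Mmp12* UMIs, or cells with peritoneal macrophage, monocyte or stromal markers were added after seeing the data. Gene positions are from the GRCm38 annotation and promoters from RefSeq. The interval code was tested on simulated data. Python 3.11.15 with numpy 2.4.6, scipy 1.17.1, pandas 2.3.3 and matplotlib 3.10.9 was used.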

Additional observations from a re-analysis of the deposited data

Results flagged for a closer look

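Several members had a ratio of opposite sign in the 2 libraries or in 2 cell classes, with intervals on either side of 0 that cover counting error only. None of these differences was tested, since each diet was 1 library. In Folr2+Lyve1- cells over the other cells, the log2 ratio in CD and HFD was 0.39 and -0.49 for *Mmp19*, -0.65 and 0.59 for *Mmp9*, -0.49 and 0.43 for *Timp2*, 0.43 and -0.32 for *Adam8*, 0.39 and -0.63 for *Thbs1*, and 0.50 and -0.46 for *Fn1*. The median depth of this class was 4995 UMIs in CD and 2522 in HFD. The other cells also differed: Lyve1+ cells, all of them among the other cells, made up 49.6% of kept cells in CD and 20.5% in HFD. A change of sign can thus lie in the class or in the cells it is set against, and the part of each was not tested. In Ccr2+ cells over the other cells, *Mmp19* was at 0.73 in CD and -0.39 in HFD. Between diets, *Mmp9* was higher in HFD in Folr2+Lyve1- cells (log2 0.54) and lower in Trem2+ cells (-0.82), and *Fn1* was higher in Trem2+ cells (0.53) and lower in Folr2+Lyve1- cells (-0.22).

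In the barcodes left out for over 10% mt- UMIs, 2059 in CD and 1132 in HFD, 8 members were above 3 UMIs in CD and 8 in HFD. There *Thbs1* was at 28.8 CPM in CD and 123 CPM in HFD, *Mmp19* at 14.2 and 62.1 CPM, *Adam8* at 37.3 and 75.5 CPM, and *Timp2* at 587 and 360 CPM. *Fn1* was at 724 and 1381 CPM. *Mmp12*, at 14.2 and 20.7 CPM, was under 2-fold, and *Mmp9*, at 228 and 268 CPM, was higher in HFD, unlike its sum over kept cells. The remaining ones were *Mmp14* with 6 UMIs in CD and *Vcan* with 4 in HFD.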

How the results depend on the processing

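Over all kept cells, 3 to 4 members were 2-fold higher in HFD and 0 lower in all alternatives run, and *Thbs1* and *Mmp19* passed 2-fold in 16 of 16, *Vcan* in 14 and *Mmp12* in 12. Summed over the 6 classes, 17 calls of higher in HFD became 9 with cells in only 1 class and 10 after thinning. The 1 call of lower became 0 with at most 5% mt- UMIs, without cells of other markers or with each cell weighted equally, 2 without the 5% of cells with most UMIs, with 2 UMIs for a class or after thinning, and 4 with a minimum of 1 UMI. For classes over the other cells, 18 higher calls became 11 after thinning, and 21 lower calls became 38 with 2 UMIs for a class. Calls that turned after thinning were *Timp1* in Lyve1+ cells over others in CD (1.4997), *Vcan* between diets in Ccr2+ cells (-0.82) and in Ccr2+ cells over others in HFD (-0.15), *Mmp12* in *Lyz1* cells over others in HFD (-0.30) and *Timp2* between diets in Plac8+ cells (2.03). With cells in only 1 class, *Vcan* in Ccr2+ cells over others in HFD (-0.31), *Thbs1* between diets in *Lyz1* cells (-0.40), *Thbs1* in Plac8+ cells over others in HFD (-0.37) and *Mmp12* in Trem2+ cells over others in HFD (-0.38) turned, and *Timp1* in Folr2+Lyve1- cells over others in CD did with 2 UMIs for a class (-0.44). The cause was not tested. Thinning and single classes leave few cells and UMIs (3 CD cells in the Plac8+ class alone), and the limit of 10 *Lyz1* UMIs was not lowered for thinned cells. No replicate could be left out, and no paired analysis was possible because each diet was 1 library.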
